A study of Mustela putorius furo with 2 samples.

Results

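Ferret pups (wild type, postnatal day 3) gave single-cell RNA profiles of dorsal cortex, from which the cells described here were picked by their own transcripts. A cell was taken when DLX1, DLX2, DLX5, DLX6, GAD1 and GAD2 together gave at least 2 unique molecular identifiers (UMIs, counted mRNA molecules) and MEIS2 gave at least 2. It also had to hold at most 1 UMI of ADARB2, of NXPH1 and LHX6 together, of SST and of EGFR. The rule found 329 of 14787 cells, here called MEIS2-gated cells. The study deposited 1 group of 2 replicates with no treatment or second genotype, prepared by papain dissociation and droplet-based 10x Genomics capture. The cells fell into 2 libraries by the suffix of their barcodes, library A with 9782 cells and library B with 5005. The labels tie neither suffix to a replicate and do not say whether the replicates were separate animals, so p-values measure only the spread between these libraries, which may be technical.

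DLX transcription factors set up the inhibitory neuron program of the ventral forebrain, and the GAD enzymes make GABA. The ventral forebrain has ganglionic eminences, zones of dividing progenitors named medial, caudal and lateral. In mice the medial and caudal eminences send interneurons to the cortex, while the lateral eminence makes striatal projection neurons and, from its dorsal edge, neurons bound for the olfactory bulb. MEIS2, a homeobox factor that works with PBX partners, marks lateral eminence descendants, and in mice it is also made by cortical excitatory neurons.

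Library A held 41836475 UMIs with a median of 3602.5 per cell, and library B held 18907140 with a median of 3068. The members numbered 187 in library A, 1.91% of its cells (95% interval 1.65 to 2.20, exact Clopper-Pearson), and 142 in library B, 2.84% (2.39 to 3.34). These intervals cover counting error only. The members' median was 4026 UMIs per cell, against 2956.5 in the other cells that passed the DLX and GAD part of the rule. A doublet score above 0.2 was found in 6.08% of the members, in 5.19% of the other DLX and GAD cells and in 3.07% of the cells that failed that part. The libraries shared 21 barcode sequences.

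The name lateral-eminence or olfactory-bulb neuron did not cover all that the members carried. MEIS2 was not selective in this tissue, since 11861 of all 14787 cells held at least 2 of its UMIs. The DLX and GAD part left 1987 cells, of which 672 also passed on MEIS2. Of these, 148 were then turned away for ADARB2, 121 for NXPH1 and LHX6, 110 for EGFR and 27 for SST, some of them for more than 1 reason. Just outside the thresholds, 1024 cells passed everything else with a DLX and GAD sum of exactly 1 and 89 with a MEIS2 count of exactly 1. Just inside, 146 members had a DLX and GAD sum of exactly 2 and 67 had exactly 2 MEIS2 UMIs.

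Genes of striatal projection neurons were uneven in the members. The 16 genes of that list summed to 280 and 232 CPM (UMIs of a gene scaled to a common total per class and library) in members of libraries A and B, against 178 and 217 CPM in all other cells. Other cells that passed the DLX and GAD part had a similar sum, at 260 and 249 CPM. Most of the members' sum came from FOXP1, FOXP2 and BCL11B, factors that are also made outside the striatum. ISL1, SIX3 and PENK, which mark the making of these neurons or their enkephalin output, gave 0 UMIs in the 329 members, which allows up to 0.912% of cells with a UMI. The dopamine receptor gene DRD1 stood at 1.12 and 0 CPM in the members, and TAC1, the substance P precursor, at 0 and 1.73 CPM. Of these 5 genes PENK alone had enough UMIs for a test against all other cells (adjusted p = 0.557 in edgeR), so their low counts are not a measured difference from those cells. FOXP1, a striatal factor also made in vessels, gave 69.7 and 86.7 CPM in the members, against 67.9 and 81.1 CPM in all other cells. A count of at least 2 UMIs was asked of ISL1, EBF1 and FOXP1 together for a striatal kind and of SP8, PAX6, TSHZ1 and SCGN together for an olfactory kind. By this count 14 members held the first kind without the second, 94 the second without the first, 12 both and 209 neither. With 5 and 9 striatal-type members in libraries A and B, no comparison between these kinds was made.

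Olfactory and dorsal lateral eminence genes gave a mixed picture. PAX6, a factor of dorsal progenitors and of olfactory bulb interneurons in mice, stood at 185 and 205 CPM in the members. SP8 and SP9, zinc finger factors of ventral forebrain neurons, stood at 66.3 and 60.7 CPM and at 92.1 and 60.7 CPM. ETV1, an ETS factor of the dorsal lateral eminence, stood at 164 and 118 CPM. Markers of more mature olfactory interneurons were at or near 0: CALB2 gave 0 UMIs in the members and SCGN gave 1.12 and 0 CPM. TH held no UMI in any cell of the matrix and was taken as unmeasured. PAX6, SP8, SP9 and ETV1 were thus detected in both libraries, while CALB2 and SCGN stayed under 2.05 CPM, the level of 3 UMIs in the members' 1466565.

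The members were not uniform along the DLX and GAD count that admitted them. These strata were cut on counts that the rule itself used, so their differences are a description and no separate finding. Depth differed too, with a median of 3482 UMIs per cell at sums of 2 or 3 and 4964 at sums of 4 or more. In the 185 members with a sum of 2 or 3, NRXN3, a presynaptic adhesion gene, stood at 260 and 404 CPM in libraries A and B. In the 144 members with a sum of 4 or more it stood at 2821 and 2199 CPM. SP8 followed the same order, with 8.04 and 14.9 CPM at the low sums and 108 and 124 CPM at the high sums, and so did TOX3, a chromatin protein of the HMG-box family, with 134 and 146 CPM at the low sums and 611 and 430 CPM at the high. SP9 gave 21.4 and 23.9 CPM at the low sums and 143 and 112 CPM at the high sums. PAX6 stood at 91.1 and 179 CPM against 253 and 240 CPM, so that its 2 strata lay closer together in library B.

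**Figure D1:**
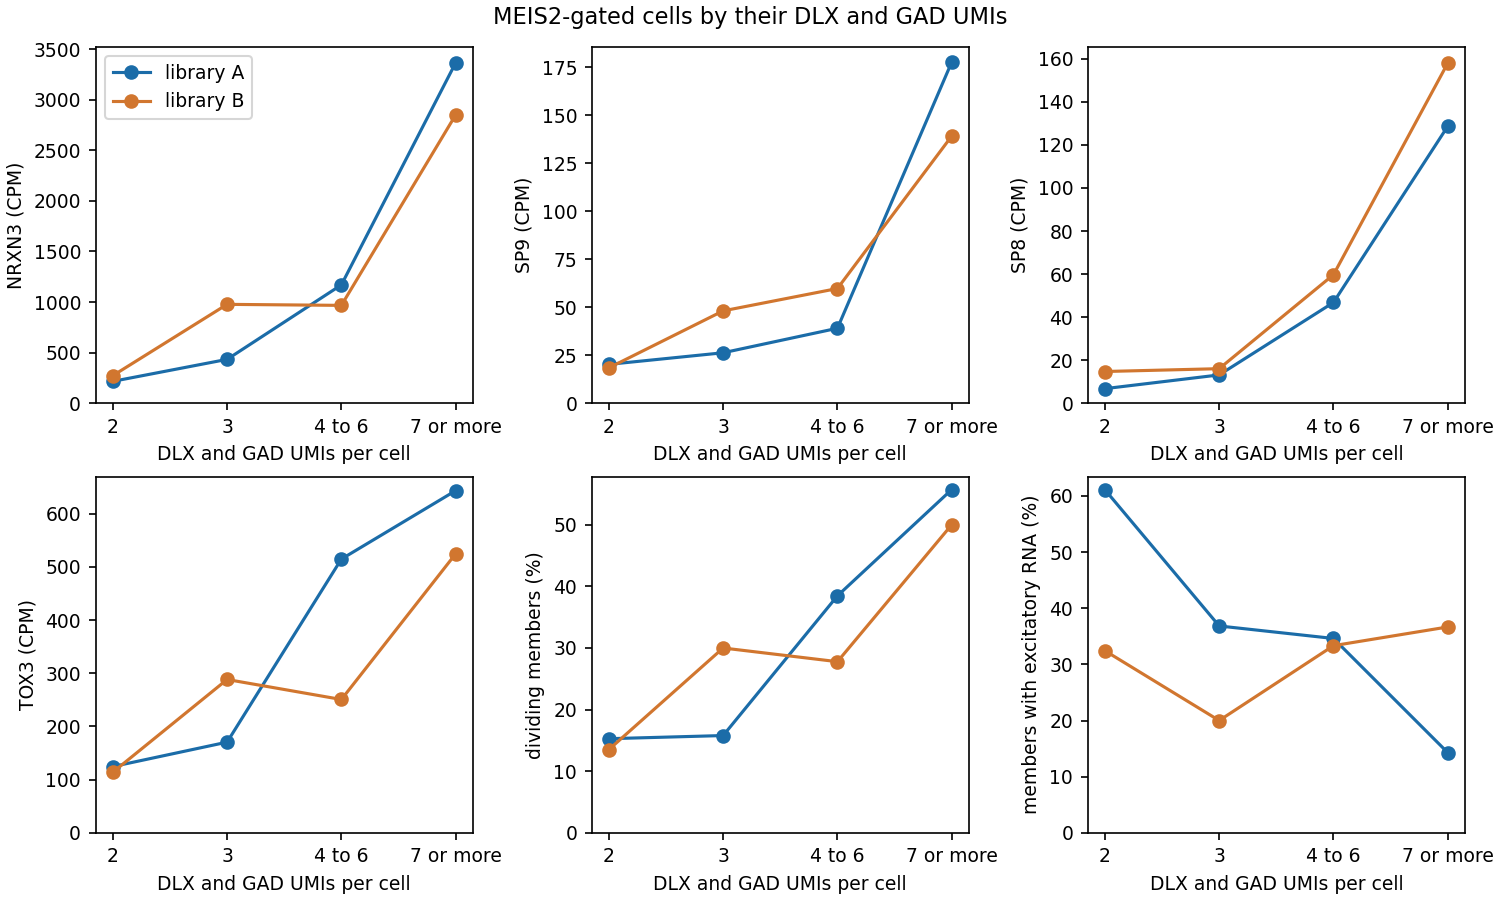
MEIS2-gated cells binned by their DLX and GAD UMIs, in libraries A and B. The upper row and the lower left panel plot CPM of NRXN3, SP9, SP8 and TOX3. The other panels plot the percent of members with at least 2 UMIs of dividing-cell or of excitatory genes. These percents were taken without thinning, although UMIs per cell differed between bins. The share with excitatory RNA is 14.3% in the top bin of library A and 36.7% in that of library B.

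Excitatory and dividing-cell transcripts split the members further. A summed count of at least 2 UMIs of NEUROD2, NEUROD6, TBR1, SLC17A7 and EOMES, genes of the cortical excitatory lineage, was found in 115 of 329 members. That is 35.0% of members, against 6.57% of other DLX and GAD cells and 57.9% of cells failing the DLX and GAD part. After thinning every cell to 1500 UMIs the shares were 17.3% of members, 2.41% of other DLX and GAD cells and 33.9% of cells failing that part. Vascular cells, taken by at least 2 CLDN5 UMIs, should not make these genes and had 13.9% before and 7.41% after thinning, at a median of 2162 UMIs per cell. Other DLX and GAD cells had less after thinning: 2.59% of those with NXPH1 or LHX6, 1.68% of those with ADARB2 and 3.96% of the remaining ones. The vascular share was thus not a background common to all classes, and how much of this RNA was free RNA was not tested. By library, the thinned shares were 17.1% and 17.6% of members against 10.9% and 6.27% of vascular cells. In library A the exact intervals of these shares overlapped, from 12.01 to 23.3 for members and from 6.21 to 17.3 for vascular cells.

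At least 2 UMIs of TOP2A, MKI67, CENPF and UBE2C, genes of cells that are dividing, were found in 99 members, or 30.1%. The share was 11.2% in other DLX and GAD cells and 13.3% in cells failing that part, and after thinning it was 23.4% of members, 7.66% of other DLX and GAD cells and 12.7% of vascular cells. Vascular cells, which can divide themselves, had 22.8% before thinning. The remaining DLX and GAD cells, a part of the other DLX and GAD cells described below, had 38.0% before and 27.1% after thinning. Their thinned shares were 26.1% in library A and 28.8% in library B, so a large dividing share was not particular to the members. By library, the thinned shares were 28.3% and 16.9% of members against 5.98% and 12.6% of other DLX and GAD cells. In library B the exact intervals overlapped, from 11.1 to 24.1 for members and from 9.60 to 16.2 for other DLX and GAD cells. Both kinds of transcript occurred together in 25 members, excitatory without dividing in 90, dividing without excitatory in 74, and neither in 140. The 90 excitatory, non-dividing members had little SP8, at 4.27 and 17.8 CPM, and much TAFA1, a secreted brain protein, at 726 and 416 CPM. The 74 dividing members without excitatory RNA had SP8 at 78.5 and 120 CPM and GSX2, a homeobox factor of lateral eminence progenitors, at 136 and 113 CPM. The 140 members with neither still held SP8 at 83.0 and 66.8 CPM.

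For the comparisons, UMIs were summed per class and library, and edgeR's quasi-likelihood test with the library as a block was run over all genes, leaving out the 12 genes of the rule. A gene was called at a Benjamini-Hochberg adjusted p below 0.05. Each fit had 4 sums and 1 residual degree of freedom, and in 3 of the 5 fits edgeR set the same spread for every gene, so p-values rest on the spread of the average gene and each gene's values in both libraries are given. Levels are CPM of summed UMIs. In summed cells, fewer cells of a kind and less RNA per cell cannot be told apart.

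Against all other cells, the members were higher in factors of ventral progenitors and of the dorsal lateral eminence and in dividing-cell genes. The test covered 15191 genes and called 287 higher and 133 lower, and the share called was 2.76%, with 1.89% higher and 0.876% lower. GSX2 stood at 75.3 and 45.1 CPM in the members, against 6.96 and 5.46 CPM in all other cells, a log2 fold change of 3.30 ± 0.26 (SE, n = 2 libraries, adjusted p = 3.24e-05), a call that ended where the rule was applied to thinned cells. SP9 was 5.79-fold higher, with a log2 fold change of 2.53 ± 0.20. Other cells passing the DLX and GAD part held SP9 too, at 171 and 115 CPM in those with NXPH1 or LHX6. Those with ADARB2 had 79.3 and 61.7 CPM and the remaining ones 75.2 and 76.1 CPM. Against these cells together SP9 was not called. SP8 was 5.28-fold higher, at 66.3 and 60.7 CPM in the members against 13.4 and 10.7 CPM in all other cells. The members lay above the other cells in both libraries for all 3 genes.

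Further genes in the same direction were TOX3 and NRXN3. TOX3 stood at 411 and 265 CPM in the members, against 95.9 and 86.6 CPM in all other cells (log2 fold change 1.90 ± 0.13). The remaining DLX and GAD cells held TOX3 at 308 and 261 CPM, close to the members in library B. Those with NXPH1 or LHX6 had 136 and 112 CPM and those with ADARB2 149 and 130 CPM. NRXN3 stood at 1747 and 1157 CPM in the members, against 507 and 343 CPM in all other cells. It was higher than in the members in cells with NXPH1 or LHX6, at 3476 and 2366 CPM, and in those with ADARB2, at 5325 and 3612 CPM. In the remaining DLX and GAD cells it stood at 1653 and 1628 CPM. NTS, the neurotensin precursor, had the largest fitted fold change, yet 41 of its 42 UMIs in library A lay in 1 member and library B had 1 UMI, and DESeq2 did not call it.

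Of 9 tested olfactory and dorsal lateral eminence genes, 4 were higher (SP8, SP9, PAX6 and ETV1) and 1, ERBB4, was lower. Their median log2 fold change was 0.64, against −0.04 over all genes. PAX6 stood at 185 and 205 CPM in the members and at 107 and 104 CPM in all other cells, a log2 fold change of 0.89 ± 0.12 (adjusted p = 0.0015). ETV1 gave 0.86 ± 0.14 and lost its call in the fit without the library block. Of 11 striatal genes tested, 2 were higher: BCL11B, a factor also of deep-layer neurons and interneurons, at 70.8 and 39.9 CPM in the members against 24.2 and 19.3 CPM in all other cells, and FOXP2, at 111 and 52.0 CPM against 34.8 and 39.0 CPM. Both calls ended without the block, and that of FOXP2 also without dividing cells or with the excluded genes held to 0 UMIs; the median over the 11 was −0.56.

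The cell cycle list had 13 of 18 genes higher, none lower and a median log2 fold change of 0.98 against all other cells. TOP2A, the mitotic topoisomerase, stood at 670 and 340 CPM in the members and at 204 and 193 CPM in all other cells (1.32 ± 0.17). MKI67, the proliferation antigen, gave 1.42 ± 0.20, and the linker histone gene H1-5, made in S phase, gave 1.81 ± 0.13. Without the library block TOP2A and MKI67 lost their calls, and MKI67 also with a thinned rule. With dividing cells taken out of every class, 1 of the 18 was called, TOP2A gave 0.53 (adjusted p = 0.88), and MKI67 and H1-5 were not called either. The ventral progenitor list had 4 of 14 genes higher and 1 lower, among them GADD45G, a growth-arrest gene of committed progenitors, at 420 and 337 CPM in the members against 175 and 194 CPM in all other cells, and SOX2, a progenitor factor, at 0.60 ± 0.10, a call that ended without the block (adjusted p = 0.0549).

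Genes lower in the members than in all other cells included SPP1, HBM, NPY and ERBB4. NPY, a neuropeptide of cortical interneurons, stood at 22.5 and 6.94 CPM in the members, against 75.0 and 79.9 CPM in all other cells (−2.24 ± 0.29), a call that ended with a thinned rule. ERBB4, the neuregulin receptor of migrating interneurons, stood at 96.6 and 477 CPM in the members and 1007 and 673 CPM in all other cells; its log2 ratio was −3.37 within library A and −0.49 within library B, and the call ended with RLE size factors, without the block, with DESeq2 and with a thinned rule. SPP1, the osteopontin gene, was lower by 2.28 on the log2 scale, with log2 ratios of −4.72 within library A and −1.67 within library B. Its call ended with thinned sums, with a thinned rule, without the block (adjusted p = 0.34) and with DESeq2 (0.334). HBM, a hemoglobin chain, had 17 UMIs in the members and also lost its call after thinning and without the block. PCP4, ANOS1 and GALNTL6 were also among the 8 largest declines, and each lost its call without the block and with a thinned rule; PCP4 and ANOS1 lost theirs in 6 alternatives each.

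Of 13 excitatory lineage genes 4 were lower and none higher. NEUROD6, a factor of cortical projection neurons, stood at 171 and 179 CPM in the members, against 313 and 309 CPM in all other cells (−0.83 ± 0.11), and NEUROD2 gave −0.89 ± 0.13. Of 27 migration and guidance genes 6 were lower and none higher, with the netrin receptor gene UNC5D at 326 and 357 CPM in the members against 727 and 610 CPM in all other cells. In the MEIS and PBX family, PBX3 was the only 1 of 8 called, at 66.3 and 50.3 CPM in the members against 25.1 and 24.5 CPM in all other cells, a call that ended after thinning and without dividing cells. The caudal list had PROX1 as its 1 called gene of 10 (1.34 ± 0.19), a call that ended without the block (adjusted p = 0.0518), and the medial list had SOX6 higher (0.83 ± 0.10) and NPY lower among 9. Of 7 retinoic acid genes 0 were called in edgeR and 0 in DESeq2, while over all genes 1962 had an unadjusted edgeR p below 0.05. Among the other lists, 1 of 3 general GABAergic genes was higher, and NPY alone was called (lower) among 6 peptide genes. Immature neuron genes had 2 higher of 8, and maturation genes 2 higher and 3 lower of 18. Lower genes numbered 1 of 26 receptors, 2 of 9 glial, 1 of 10 vascular, microglial and erythroid, and 2 of 12 immediate early genes. The shares called in these lists ran from 3.85% for receptors to 33.3% for general GABAergic genes, against 2.76% over all genes.

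**Figure D2:**
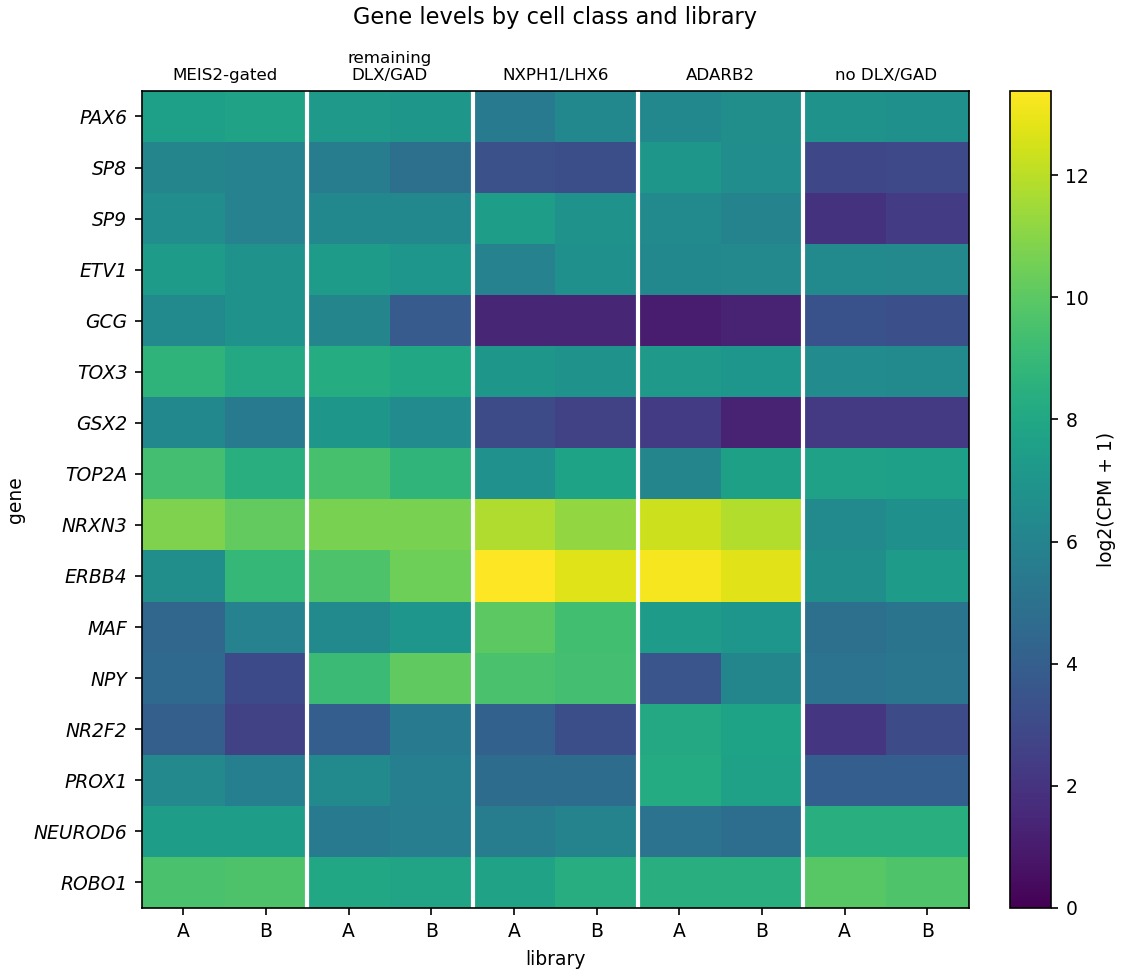
Levels of 16 genes in 5 classes of cells and libraries A and B, as log2(CPM + 1) of summed UMIs; the classes run from MEIS2-gated cells to cells failing the DLX and GAD part. PAX6, SP8, GSX2 and TOP2A are higher in the members and the remaining DLX and GAD cells than in NXPH1/LHX6 cells in each library, while ERBB4 is highest in the NXPH1/LHX6 and ADARB2 cells.

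Set against the 1658 other cells that passed the DLX and GAD part, the members carried more dividing-cell, ventral progenitor and excitatory transcripts and less of the transcripts of caudal and medial interneurons, synapses and transmitter receptors. The test covered 10566 genes and called 711 higher and 690 lower, a share called of 13.3%, with 6.73% higher and 6.53% lower. The reference contained the cells the rule turned away for ADARB2, NXPH1 and LHX6, EGFR or SST. Part of the contrast was thus set by the rule itself.

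Among 18 cell cycle genes 15 were higher and none lower, with a median of 0.996 against −0.004 over all genes. TOP2A stood at 670 and 340 CPM in the members and at 211 and 256 CPM in other DLX and GAD cells, with log2 ratios of 1.67 in library A and 0.41 in library B. With dividing cells taken out, TOP2A gave 0.38 (adjusted p = 0.695) and 3 of 11 tested list genes stayed called. SHCBP1, a midbody protein gene, was among the 12 largest rises at 28.1 and 13.9 CPM in the members against 5.67 and 5.38 CPM in other DLX and GAD cells, a call lost with DESeq2. DESeq2, used as an alternative, called 1 of the 18 list genes and 237 genes in all, or 2.24%. It called 4 of 11 excitatory genes, 1 of 14 ventral progenitor genes and 3 of 10 caudal genes.

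Of 14 ventral progenitor genes 7 were higher and 2 lower. GSX2 stood at 75.3 and 45.1 CPM in the members against 31.4 and 21.5 CPM in other DLX and GAD cells (1.20 ± 0.24, adjusted p = 1.48e-05), but lost its call with DESeq2 and with the excluded genes held to 0. GADD45G gave 1.20 ± 0.15. OLIG1, a factor of progenitors and of the oligodendrocyte lineage, was lower at 29.2 and 102 CPM in the members against 137 and 145 CPM in other DLX and GAD cells. Its log2 ratio was −2.20 within library A and −0.50 within library B, and it was positive, at 0.50, where the rule itself was applied to thinned cells; the call also ended without the block and with DESeq2.

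PAX6 was higher in the members. It stood at 185 and 205 CPM in the members and 78.5 and 97.4 CPM in other DLX and GAD cells, a log2 fold change of 1.16 ± 0.16, and was called under every alternative that gave a test. ETV1 gave 0.64 ± 0.17 and SALL3, a zinc finger gene, 0.67 ± 0.22, both losing their calls with DESeq2, without the block and with the excluded genes held to 0, and SALL3 also without dividing cells and with no filter on low counts. SP8 gave 0.08 ± 0.21 (adjusted p = 0.89), at 66.3 and 60.7 CPM in the members and 68.3 and 49.6 CPM in other DLX and GAD cells, so a difference in this gene was not detected. The 8 tested genes of the list had 3 higher and 2 lower, the lower pair being ERBB4 and the prokineticin receptor gene PROKR2, and a median of −0.14. Of 5 striatal genes FOXP2 was higher and BCL11B lower, both lost with DESeq2 and without the block. FOXP2 was also lost without dividing cells and with the excluded genes held to 0, and BCL11B with a thinned rule and at a DLX and GAD sum of 4.

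Excitatory transcripts rose in the members: 9 of 11 list genes were higher and none lower, with a median of 1.65. NEUROD6 stood at 171 and 179 CPM in the members against 41.2 and 45.4 CPM in other DLX and GAD cells, and TAFA1 at 207 and 184 CPM against 26.0 and 57.4 CPM. With cells holding excitatory RNA taken out of the DLX and GAD classes, NEUROD6 gave 0.50 (adjusted p = 0.49), NEUROD2 0.97 (0.17) and TAFA1 0.64 (0.27), while 4 of 9 tested list genes were still higher and 1 was lower. NEUROD2 also lost its call with a thinned rule. After thinning, 16.7% of members held a NEUROD6 UMI, 14.9% a TAFA1 UMI and 14.9% a NEUROD2 UMI, against 17.4%, 22.4% and 13.9% of vascular cells. For NEUROD6 and TAFA1 the members' shares thus lay at or below those of vascular cells. In NXPH1/LHX6, ADARB2 and remaining DLX and GAD cells the NEUROD6 shares were 6.55%, 3.87% and 6.27%. For TAFA1 they were 3.62%, 1.55% and 5.28%, so the members lay above these classes in both genes. Whether the members made this excitatory RNA themselves was not tested. The same RNA stood at 293 and 260 CPM for NEUROD2 in cells failing the DLX and GAD part, and its part in the result was not tested.

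Other large rises were GCG, described below, BHLHE22, RASGEF1B, TMEM26, CRABP1, FHIP1A and CNTN5. CNTN5, a contactin adhesion gene, stood at 592 and 474 CPM in the members and 127 and 173 CPM in other DLX and GAD cells (1.86 ± 0.14). After thinning, 31.9% of members held a CNTN5 UMI, against 51.4% of vascular cells and 47.0% of cells failing the DLX and GAD part. In NXPH1/LHX6, ADARB2 and remaining DLX and GAD cells the share was 7.93%, 9.81% and 13.2%. The members' share thus lay below that of vascular cells and above those of the other DLX and GAD classes. Whether the members made CNTN5 themselves was not tested. CRABP1, which binds retinoic acid in the cell, stood at 25.8 and 36.4 CPM in the members against 8.51 and 7.17 CPM, and was the 1 higher gene of 5 tested in the retinoic acid list, where 2 were lower, RARA among them; DESeq2 did not call it (adjusted p = 0.134). RASGEF1B, a Ras-family exchange factor, was 3.83-fold higher. BHLHE22, TMEM26 and FHIP1A lost their calls when a DLX and GAD sum of 4 was asked for, and BHLHE22 and FHIP1A also with DESeq2. After thinning, the members' shares with a UMI of BHLHE22, FHIP1A and RASGEF1B were 3.04%, 2.13% and 5.78%, close to the 3.26%, 2.17% and 5.61% of vascular cells. CRABP1 and TMEM26 had 3.95% and 7.90% of members against 2.17% and 4.16% of vascular cells. Of the MEIS and PBX list 1 of 8 genes was higher and none lower.

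**Figure D3:**
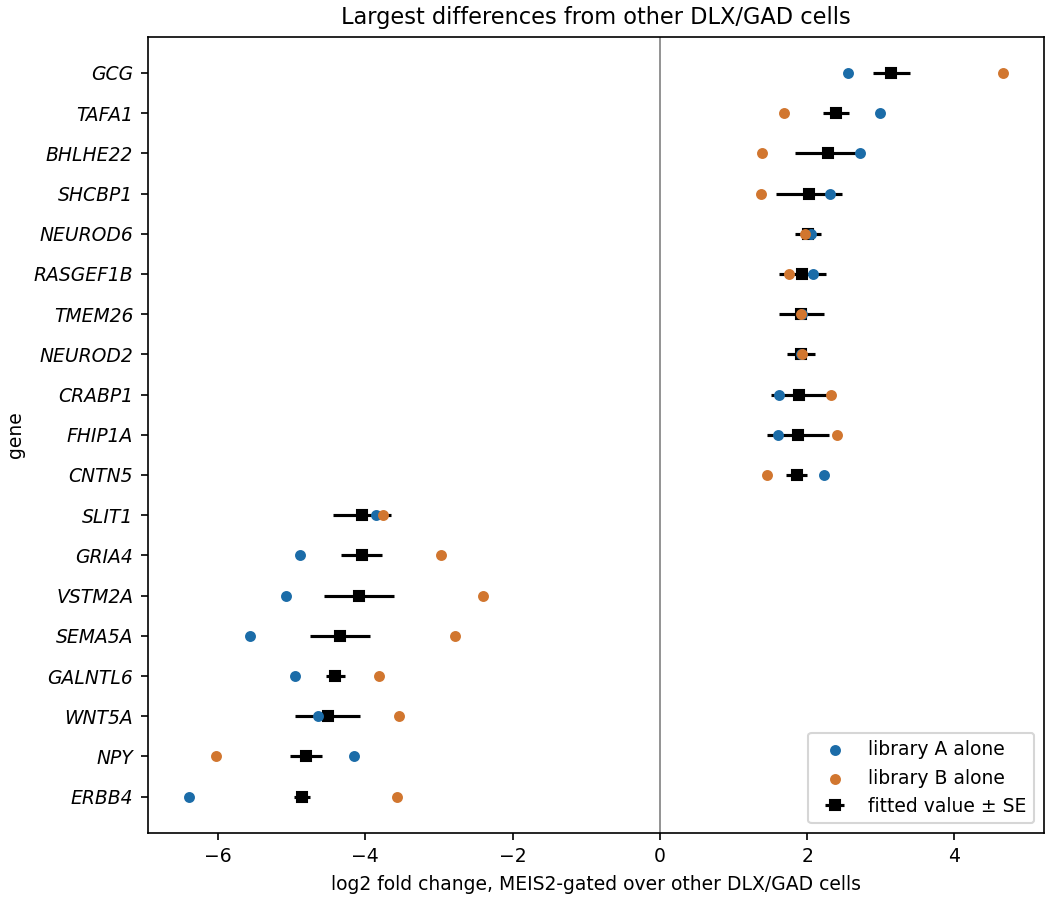
Log2 fold changes of the genes with the largest differences between MEIS2-gated cells and other DLX and GAD cells: fitted value with its SE (square) and the log2 ratio in libraries A and B alone (circles). Genes with 3 or fewer UMIs in the members are not drawn; for ERBB4 the libraries lie at −6.40 and −3.57, far outside the SE of the fitted −4.86.

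Caudal eminence genes were lower in 10 of 10 tested and medial ones in 7 of 8, with medians of −2.00 and −2.04. NR2F2, a nuclear receptor of caudal interneurons, stood at 15.7 and 5.20 CPM in the members against 119 and 105 CPM in other DLX and GAD cells (−3.31 ± 0.28). NPAS1 gave −3.41 ± 0.23. PROX1 gave −0.96 ± 0.19, and its call ended with a thinned rule, at a DLX and GAD sum of 4, without excitatory RNA and with DESeq2. MAF, a factor of medial interneurons, stood at 20.2 and 60.7 CPM in the members against 481 and 314 CPM. The rule kept ADARB2, NXPH1 and LHX6 cells out of the members, so these counts describe the contrast and are no separate finding.

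ERBB4 was 29.0-fold lower, at 96.6 and 477 CPM in the members and 8202 and 5686 CPM in other DLX and GAD cells. GALNTL6, a glycosyltransferase-like gene, was 21.2-fold lower, and NPY was 28.0-fold lower, at 22.5 and 6.94 CPM in the members against 409 and 510 CPM. CXCR4, the CXCL12 receptor that guides interneuron migration, stood at 19.1 and 39.9 CPM in the members against 388 and 395 CPM in other DLX and GAD cells (−3.82 ± 0.20). WNT5A, SEMA5A, VSTM2A, GRIA4 and SLIT1 were also among the largest declines, with 4 to 14 UMIs each in the members. GRM8, BEND4, RPH3A and KCNC2 had 1, 1, 2 and 3 UMIs in the members, and DESeq2 did not call GRM8 or RPH3A. The CPM ratio of GRM8, a metabotropic glutamate receptor gene, was 0.014, with a 95% counting interval of 0.00035 to 0.078, and that of KCNC2, a potassium channel gene, was 0.057 (0.012 to 0.17).

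Synaptic and receptor genes were more often lower than higher. In the maturation list 9 of 15 genes were lower and 1 higher, with NRXN3 at 1747 and 1157 CPM in the members against 3874 and 2735 CPM in other DLX and GAD cells, and the synaptotagmin gene SYT1 at 398 and 368 CPM against 1268 and 840 CPM. In the receptor list 9 of 21 were lower and 1 higher, with the AMPA receptor gene GRIA1 at 47.2 and 71.1 CPM in the members against 642 and 437 CPM and the kainate receptor gene GRIK2 at 217 and 281 CPM against 1735 and 1342 CPM. Of 3 general GABAergic genes 2 were lower; SLC32A1, the vesicular GABA transporter gene, was lower by 1.75 on the log2 scale, resting on 11 UMIs in the members and lost with DESeq2, without the block and at a DLX and GAD sum of 4. TAC3, NPY and CCK, the 3 tested genes of the peptide list, were all lower, TAC3 by 2.77 ± 0.36, a call that ended with a thinned rule. The maturation list had 11 of 15 genes lower against NXPH1/LHX6 cells and 8 of 15 against ADARB2 cells. Against the remaining DLX and GAD cells alone, 4 of 15 maturation genes were higher and 0 lower, with a median log2 fold change of 0.31. The receptor list there had 3 of 17 higher and 3 lower, with a median of 0.32. The synaptic decline was thus one from the cells that the rule turned away for NXPH1, LHX6 or ADARB2.

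The migration list moved both ways, with 10 of 25 genes higher and 5 lower. The SLIT receptor gene ROBO1 stood at 735 and 800 CPM in the members against 278 and 312 CPM in other DLX and GAD cells (1.37 ± 0.13), and ROBO2 at 2901 and 2366 CPM against 1532 and 1436 CPM. DCX, a microtubule protein of migrating neurons, gave −0.07 ± 0.15 (adjusted p = 0.85). Of 8 immature neuron genes 2 were higher and 1 lower. Glial genes had 3 of 8 higher and 2 lower, immediate early genes 3 of 10 higher, and the vascular, microglial and erythroid list 1 of 8 in each direction. CLDN5, the endothelial claudin and the higher one of that list, stood at 7.86 and 153 CPM in the members against 16.6 and 57.4 CPM in other DLX and GAD cells, so library A alone gave −0.99 and library B 1.41, and the call ended in 6 of the alternatives; it was at 2509 and 3064 CPM in vascular cells, which made up 415 of 5005 cells in library B and 138 of 9782 in library A.

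**Figure D4:**
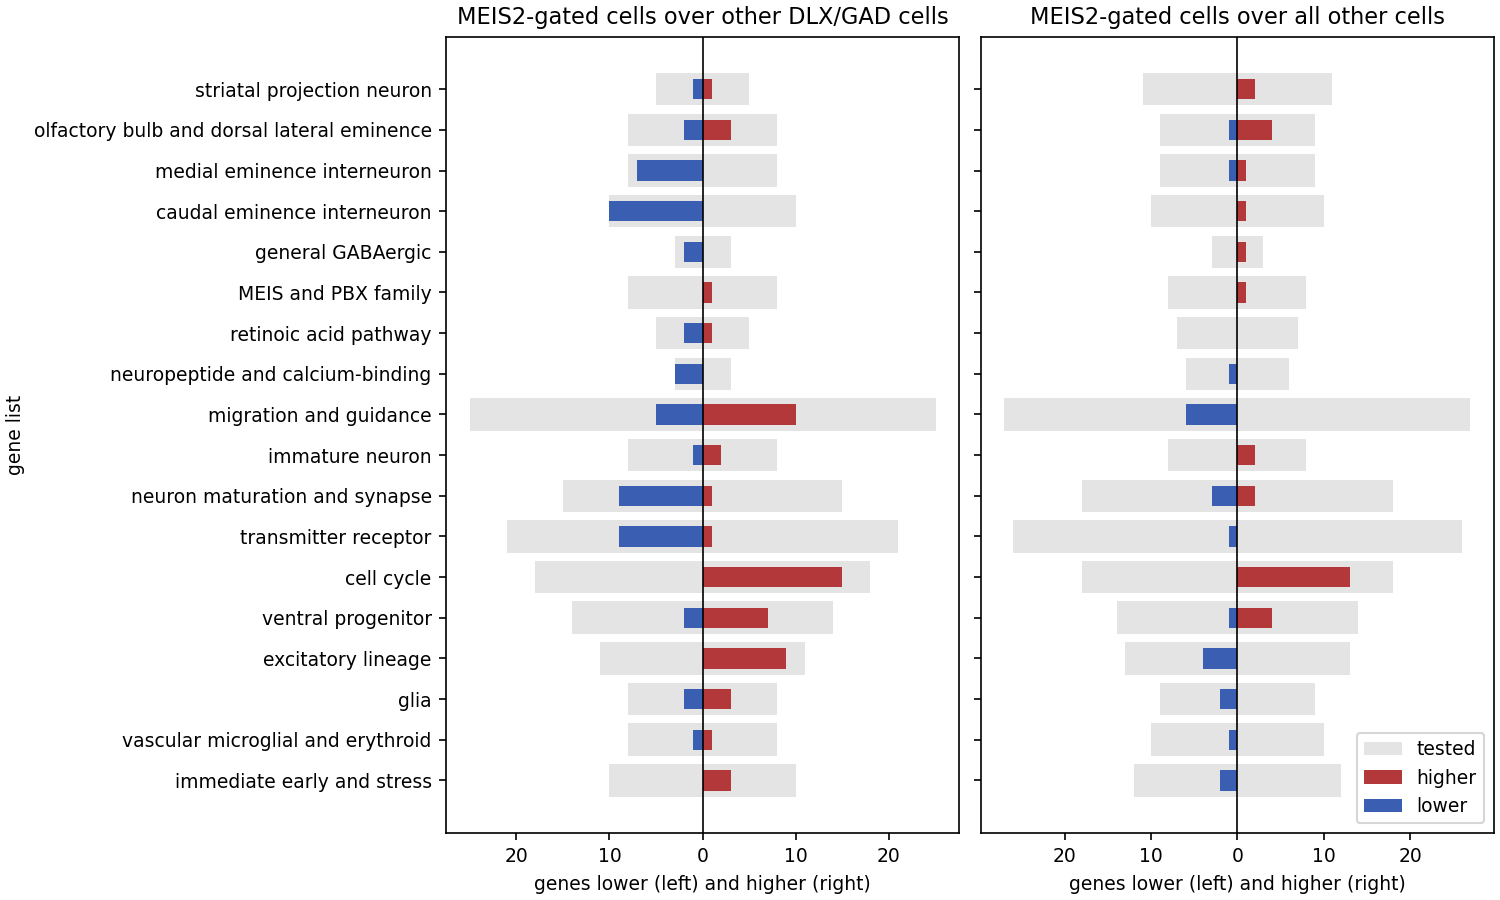
Genes of each of the 18 lists called lower (left, blue) or higher (right, red) in MEIS2-gated cells, over the number tested (grey, drawn on both sides), against other DLX and GAD cells (left panel) and against all other cells (right panel). Cell cycle genes are higher in both panels, with 15 and 13 of 18, while excitatory genes are higher in 9 of 11 on the left and lower in 4 of 13 on the right.

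Against the 580 NXPH1/LHX6 cells, which were gated as medial-type interneurons, 816 of 9025 genes were higher and 720 lower, a share called of 17.0%, with 9.04% higher and 7.98% lower. GCG, GSX2, CDCA7L, BHLHE22, SP8 and CDCA8 led the rises. SP8 stood at 66.3 and 60.7 CPM in the members against 9.02 and 8.45 CPM in NXPH1/LHX6 cells (2.87 ± 0.38), and PAX6 at 185 and 205 CPM against 45.1 and 74.4 CPM. PROX1 was also higher, by 1.44 ± 0.30, but was not called by DESeq2. Of 8 tested olfactory and dorsal lateral eminence genes 4 were higher and 3 lower (SP9, PROKR2 and ERBB4), with a median log2 fold change of 0.17. SP9 stood at 92.1 and 60.7 CPM in the members against 171 and 115 CPM in NXPH1/LHX6 cells. CDCA8, a chromosomal passenger gene, stood at 40.4 and 27.8 CPM in the members against 6.20 and 5.07 CPM. The cell cycle list had 16 of 17 genes higher, and its member TOP2A gave 0.31 (adjusted p = 0.79) once dividing cells were taken out.

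The declines against NXPH1/LHX6 cells were led by GRM8, BEND4, NPY, CHRM2, OLFM3 and KCNC2. NPY stood at 22.5 and 6.94 CPM in the members against 753 and 676 CPM in NXPH1/LHX6 cells, and OLFM3, an olfactomedin gene, at 5.62 and 24.3 CPM against 634 and 399 CPM. CHRM2, a muscarinic receptor gene, had 1 UMI in the members, a CPM ratio of 0.022 (0.00056 to 0.13). All 9 tested medial list genes were lower, with MAF at −4.48 ± 0.19; the reference was gated on NXPH1 and LHX6, so this describes the gate.

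Against the 775 ADARB2 cells, gated as caudal-type interneurons, 539 of 9139 genes were higher and 477 lower, a share called of 11.1%, with 5.9% higher and 5.22% lower. GCG, GSX2, HBA1, SHCBP1, TAFA1 and H1-5 led the rises. SOX6, a factor of medial interneurons and of progenitors, stood at 649 and 588 CPM in the members against 187 and 245 CPM in ADARB2 cells (1.54 ± 0.16). It was the 1 higher gene of 6 tested in the medial list, where MAF, ELFN1 and ZEB2 were lower and the median was −1.02. PAX6 was 1.21 ± 0.17 higher on the log2 scale, and lost its call with DESeq2 (adjusted p = 0.0523). HBA1, a hemoglobin gene, had 16 of its 21 UMIs in library A in 1 member, and lost its call in the fit of all classes. TAFA1 lost its call with excitatory RNA taken out (1.14, adjusted p = 0.0649), and TOP2A gave 0.60 (adjusted p = 0.48) with dividing cells taken out.

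SP8 lay on the other side here, at 66.3 and 60.7 CPM in the members against 133 and 94.0 CPM in ADARB2 cells (−0.87 ± 0.20, adjusted p = 0.031), a call that ended with DESeq2, with a DLX and GAD sum of 4, with a thinned rule and without excitatory RNA. NR2F2 stood at 15.7 and 5.20 CPM in the members against 265 and 216 CPM in ADARB2 cells. PROX1 stood at 77.5 and 53.8 CPM against 294 and 203 CPM (−1.93 ± 0.17). The named declines were THSD4, WNT5A, RPH3A, GALNTL6, BEND4 and ERBB4, with WNT5A, a secreted Wnt ligand, at 2.25 and 3.47 CPM in the members against 151 and 107 CPM.

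The remaining DLX and GAD cells passed on DLX and GAD but were neither members, NXPH1/LHX6 nor ADARB2 cells, and this comparison was added after the data were seen. They numbered 303, of which 199 came from library A, with 38.0% dividing by the count above. Among them were 87 cells with at least 2 MEIS2 UMIs, which the rule had turned away for EGFR or SST. Part of this contrast was thus also set by the rule. Among 8794 genes the test called 258 higher and 161 lower in the members, a share called of 4.76%, with 2.93% higher and 1.83% lower. DESeq2 called 39 (0.443%) and a fit of all classes together 86 (0.819%). PAX6 did not pass the test here, at 185 and 205 CPM in the members against 152 and 136 CPM (0.39 ± 0.16, adjusted p = 0.188); with sums thinned it was called higher, at 0.92. The olfactory list had 0 of 7 genes higher and 1, ERBB4, lower in edgeR; at an unadjusted p below 0.05, 1273 of all 8794 genes passed.

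Excitatory genes were again higher in the members, in 8 of 10 tested, and 4 of 18 cell cycle genes were lower with none higher. NEUROD6 stood at 171 and 179 CPM in the members against 44.7 and 51.6 CPM in remaining cells, and lost its call with a thinned rule and with the excluded genes held to 0 (1.19, adjusted p = 0.103). TAFA1, BHLHE22, AQP4, GALNT14, ACE and SLC17A6 had the largest fitted rises, and none of the 6 was called under all its alternatives. TAFA1 lost its call without excitatory RNA (0.72, adjusted p = 0.557) and with the excluded genes held to 0. AQP4 lost its call in 6 of 9 alternatives, GALNT14 in 5 of 10, BHLHE22 in 4 of 7 and ACE in 3 of 6. The log2 ratio of BHLHE22 was 4.24 within library A and 0.14 within library B. SLC17A6, a vesicular glutamate transporter gene, stood at 35.9 and 33.0 CPM in the members against 8.71 and 8.15 CPM, a call that ended in the fit of all classes (adjusted p = 0.056), without the block (0.0543) and with the excluded genes held to 0 (0.111). After thinning, the shares of members with a UMI of BHLHE22, AQP4, GALNT14, ACE or SLC17A6 lay between 2.74% and 6.08%, and those of vascular cells between 3.07% and 5.97%. ROBO1 was higher, at 735 and 800 CPM in the members against 260 and 223 CPM (1.64 ± 0.13), as were 11 of 21 migration genes in all.

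The declines against remaining cells included NPY, SPP1, BCAS1, PDE1A and APOA1. NPY stood at 22.5 and 6.94 CPM in the members against 563 and 1098 CPM in remaining cells. SPP1 stood at 2.25 and 67.7 CPM against 89.3 and 1527 CPM, and its fitted change was 0.61 in the other direction where the rule was applied to thinned cells; the call also ended without the block. APOA1, an apolipoprotein gene found in 84.1% of vascular cells, stood at 20.2 and 239 CPM in the members against 52.3 and 1367 CPM, and lost its call with a thinned rule, without the block and in the fit of all classes. BCAS1 and PDE1A also lost theirs in the fit of all classes. GSX2 was lower in the members (−0.88 ± 0.21), a call that ended in 9 of the alternatives, while OLIG1 stood at 29.2 and 102 CPM in the members against 331 and 177 CPM in remaining cells, a call that ended in 3 of the alternatives. How far the EGFR and SST limits of the rule set these declines was not tested.

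GCG, the proglucagon gene, known for pancreatic and gut endocrine cells and for hindbrain neurons, was among the largest rises in 4 of the 5 comparisons. It stood at 84.3 and 113 CPM in the members, against 66.4 and 13.6 CPM in remaining cells, 1.69 and 1.69 CPM in NXPH1/LHX6 cells, 1.06 and 1.40 CPM in ADARB2 cells and 9.19 and 8.58 CPM in cells failing the DLX and GAD part. Against other DLX and GAD cells it was 8.83-fold higher (3.14 ± 0.25 on the log2 scale), with log2 ratios of 2.55 in library A and 4.66 in library B, and it was called under each of the 13 alternatives. Few members carried it: 15 in library A held 75 UMIs and 14 in library B held 65, with at most 17 in 1 cell. After thinning, 6.08% of members had a GCG UMI, against 3.63% of remaining cells, 0.75% of cells failing the DLX and GAD part and 1.09% of vascular cells. By stratum it did not follow SP8, standing at 137 and 119 CPM in the excitatory, non-dividing members and at 49.9 and 127 CPM in the dividing members without excitatory RNA.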

How the data were processed

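The counts came from the authors' 1 deposited matrix of whole-number UMI counts, made with Cell Ranger per the submitters' processing notes; the sources used here give no version, build or cell filter. UMIs were found for 21317 of 29816 gene names. No cell had under 1501 UMIs. Members, lists and references were chosen with earlier results of these data known. Counts were summed by class and library, with at least 20 cells a sum, and tested with edgeR 4.0.16 (TMM, filterByExpr, library block, R 4.3.3); SE is the log2 fold change over the square root of F. DESeq2 1.42.0 was an alternative. The library block was used because both classes of a fit came from the same 2 libraries. The steps were tested on simulated data. Doublets were scored with Scrublet in scanpy 1.11.5, whose threshold marked 1 cell and so had not worked; scores above 0.2 were removed as an alternative. Thinning drew 1500 UMIs per cell. Named genes were the largest called changes per comparison and direction with 1 sign in both libraries and at least 20 CPM in the higher class; other genes came from the 18 lists and were picked after their values were seen. No sequence was used. Some genes that passed these rules are not reported here.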

Additional observations from a re-analysis of the deposited data

How the results depend on the processing

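Counts of called genes depended on the settings. The number of genes tested moved too, so each count stands with its share of the genes tested. Against all other cells the 420 (2.76%) became 274 (2.05%) with thinned sums, 253 (1.95%) with a thinned rule and 639 (4.24%) at 3 or more MEIS2 UMIs. A DLX and GAD sum of 4 or more gave 1439 (9.7%). Without excitatory RNA there were 904 (6.05%), a setting that took cells out of the DLX and GAD classes only and left cells failing that part unchanged. Without dividing cells (added after seeing the data) there were 157 (1.08%). No filter on low counts gave 806 (3.78%) and DESeq2 197 (1.3%). Against other DLX and GAD cells the 1401 (13.3%) became 876 (12.1%) with thinned sums and 412 (6.98%) with a thinned rule. With the excluded genes at 0 there were 852 (8.09%), and with DESeq2 237 (2.24%). Against NXPH1/LHX6 cells the 1536 (17%) became 548 (11%) with thinned sums, 929 (10.7%) at 3 or more MEIS2 UMIs and 262 (2.9%) with DESeq2. With a thinned rule the count fell to 506 while the share rose to 21.4%, since 2366 genes were tested in place of 9025. Against ADARB2 cells the 1016 (11.1%) became 1571 (18.1%) without high doublet scores and 1604 (18%) at 3 or more MEIS2 UMIs. DESeq2 gave 278 (3.04%) and a fit of all classes 1548 (14.7%). With a thinned rule the count fell to 637 while the share rose to 18.4%. With no filter the count rose to 1688 while the share fell to 9.4%. Against remaining cells the 419 (4.76%) became 113 (2.32%) with thinned sums, 29 (0.871%) with a thinned rule and 130 (1.57%) at 3 or more MEIS2 UMIs. A sum of 4 gave 126 (1.99%) and the excluded genes at 0 gave 70 (0.869%). Without excitatory RNA there were 153 (2.14%), and without dividing cells 202 (3.02%). DESeq2 gave 39 (0.443%) and a fit of all classes 86 (0.819%). Without the replicate block the counts were 109 (0.718%), 673 (6.37%), 779 (8.63%), 1122 (12.3%) and 81 (0.921%) in the same order. Of the 76 named results, 15 lost their call without the block, and 13 of the 61 that DESeq2 tested lost it there; none did with the cell filter. The cause of these moves was not tested, apart from the cells or genes that a setting takes out.

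The members' share of libraries A and B became 0.818% and 1.12% with a thinned rule, 1.58% and 2.14% at 3 or more MEIS2 UMIs, 0.981% and 0.959% at a DLX and GAD sum of 4 or more, 1.30% and 1.80% with the excluded genes at 0, and 1.21% and 1.97% without excitatory RNA; without dividing cells library A gave 1.45%. The share was thus higher in library B except at a sum of 4 or more. Single genes reversed in 3 cases: OLIG1 (0.50) against other DLX and GAD cells and SPP1 (0.61) against remaining cells with a thinned rule, and CLDN5 against other DLX and GAD cells, which gave −0.99 with library B left out and 1.41 with library A left out. With 1 library left out no test was possible, and named genes then had values only. The median over all genes against all other cells was −0.04, and it was −0.21 with a thinned rule and −0.19 with no filter. Low counts limit genes with a few UMIs in 329 members, and library B rests on 142 cells.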
